A study of Mus musculus with 6 samples.

Results

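The genes described here are 10 genes of lipoprotein handling and cellular lipid efflux, Apoe, Lpl, Abca1, Abcg1, Abca9, Nr1h3, Nr1h2, Soat1, Lrp1 and Pltp. They were chosen by name, with earlier results of these data known. All 10 were found among the 35237 genes of the Cufflinks table and among the 36536 entries of the ALEXA-Seq table. The study compared bone marrow monocytes (BMDM, CD11b+ CD45high CD115+ Ly6G- cells) with brainstem microglia (BSM, CD11b+ CD45low CD115low Ly6G- cells). Both cell types were sorted by FACS from C57BL/6 mice at 6 weeks of age, with 3 libraries for each, and every library came from cells pooled over several mice. Replicate 1 of each cell type was labelled male and replicates 2 and 3 female, whereas the text of the study names male mice. By the labels, which are followed here, the sex of the mice and the replicate number cannot be told apart. The values are FPKM, that is, fragments scaled by transcript length and by mapped reads. Levels of genes in a library are set side by side on that scale. It does not remove a bias of the amplification between genes, which was not tested. No read numbers per gene were used, so the depth of any given value is unknown, and as each library was amplified from a pool, the p-values measure the spread between pools. The RNA of BSM replicate 1 had by far the lowest concentration and integrity of the 6 samples, and for several members the result is also given without this library.

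Macrophages and microglia take up lipoproteins and membrane debris and have to store or export the cholesterol that they cannot degrade. In the classical pathway, oxysterols activate the liver X receptors, encoded by Nr1h3 (LXR alpha) and Nr1h2 (LXR beta), which induce the transporters Abca1 and Abcg1 and the apolipoprotein Apoe. Abca1 loads cholesterol and phospholipid onto lipid-poor apolipoproteins, Abcg1 passes cholesterol to formed particles, and Soat1 esterifies the remainder for storage in droplets. In the brain, Apoe carries most of the lipid between cells and Lrp1 is a main receptor for it.

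The 5′ sequences of Abca1, Abca9 and Soat1, the members with the largest differences on the log2(FPKM + 1) scale, are shown with the 250 bases before the annotated transcription start, from RefSeq on build GRCm38.p6. This is another build than that of the expression files, and all 3 lie on the minus strand. The Abca1 sequence is at chr4:53159896-53160145, that of Abca9 at chr11:110168154-110168403 and that of Soat1 at chr1:156474329-156474578, and capitals mark the stretch of Abca1 described next.
Abca1: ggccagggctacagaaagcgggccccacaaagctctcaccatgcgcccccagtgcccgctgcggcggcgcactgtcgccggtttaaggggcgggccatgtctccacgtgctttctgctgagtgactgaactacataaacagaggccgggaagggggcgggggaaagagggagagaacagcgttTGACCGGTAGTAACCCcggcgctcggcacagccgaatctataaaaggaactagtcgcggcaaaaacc
Abca9: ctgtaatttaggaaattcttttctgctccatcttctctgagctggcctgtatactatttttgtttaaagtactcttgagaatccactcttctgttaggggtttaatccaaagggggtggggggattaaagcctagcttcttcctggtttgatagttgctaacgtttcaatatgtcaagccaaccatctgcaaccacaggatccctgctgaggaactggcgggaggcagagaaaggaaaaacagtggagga
Soat1: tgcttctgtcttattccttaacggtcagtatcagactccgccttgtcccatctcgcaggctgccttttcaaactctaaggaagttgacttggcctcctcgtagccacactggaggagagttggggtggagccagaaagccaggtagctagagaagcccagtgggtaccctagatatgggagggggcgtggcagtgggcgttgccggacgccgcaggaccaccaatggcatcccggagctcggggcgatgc
LXR and its partner RXR bind the half-site AGGTCA repeated in the same direction with 4 bases between the copies, a motif known as DR4. Both strands of the window from 250 bases before to 50 bases after each start were searched, with up to 2 mismatches in the half-sites. Of the 10 members, 8 were among the promoters, with 11 windows in all (Lpl and Abcg1 were not). None of the 8 members held a match, that is, 0 of the 11 windows against 3.02% of all 32851 windows. At that share, so few windows would mostly hold none, so the absence sets the members apart from no other genes. With up to 3 mismatches, a limit set after these values were seen, only Abca1 held a match, on the opposite strand at positions -67 to -52 from the start, and 21.9% of all windows held one. A match or its absence in a window of this length is a description of the letters and says nothing about binding.

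In the FPKM data, Abca1 and Abca9 were higher in BSM, Soat1 and Lpl were lower, and Apoe, Lrp1, Abcg1 and Nr1h2 did not pass the test (limma on log2(FPKM + 1), adjusted p under 0.05 over 6364 genes). Nr1h3 and Pltp never reached the FPKM of 3 in any library that the test required, so 8 of the 10 members were tested. The 2 members higher in BSM stand beside 9.22% of all tested genes called in that direction, and the 2 lower in BSM beside 45.3% in the other. The median log2 fold change was 0.04 over the 8 members tested and -0.81 over all 6364 genes. Summed FPKM came to between 68287.8 and 75021.4 in BSM and between 163198.7 and 194184.2 in BMDM, and the part of this in the shift of all genes was not tested. Under upper quartile scaling, quantile normalization and equal sums of FPKM that median was -0.15, -0.02 and 0.23. Under each of the 3, Apoe and Lrp1 were also called higher in BSM and Lpl lost its call, so directions are given below with both readings. The FPKM of the 4 called members did not overlap between the cell types, which was also true of 66.8% of all tested genes.

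**Figure D1:**
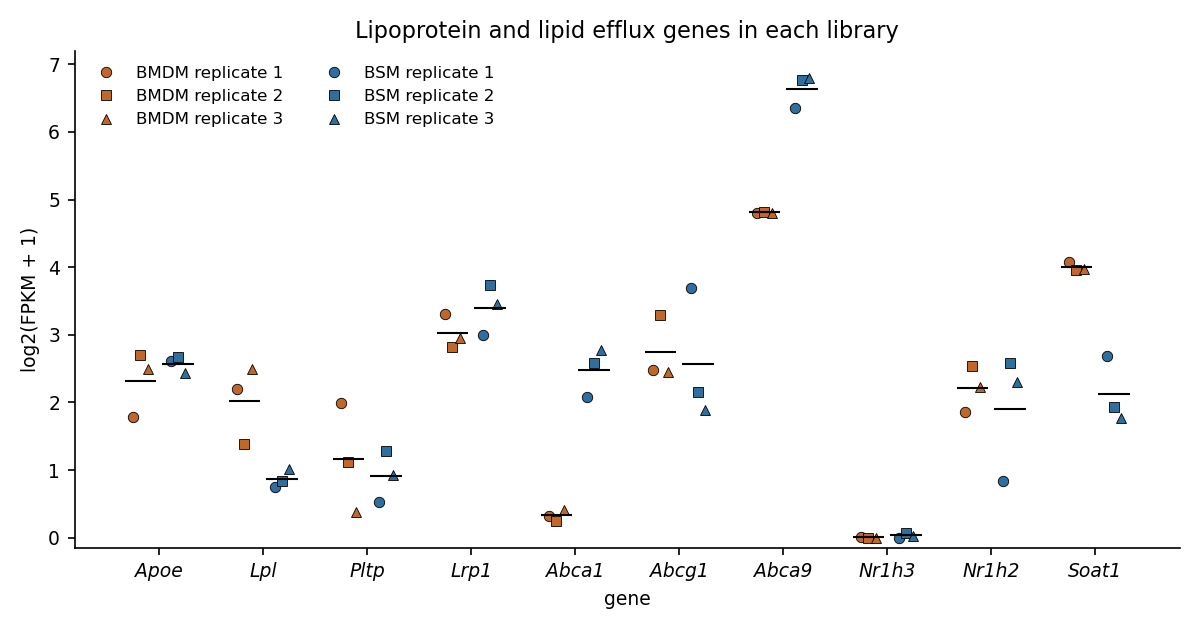
Level of the 10 genes in each library as log2(FPKM + 1), with circles, squares and triangles for replicates 1, 2 and 3 and a bar for the mean of each cell type. The BSM points lie above the BMDM points for Abca1 and Abca9 and below them for Lpl and Soat1, and BSM replicate 1 stands apart from the other BSM libraries for Abcg1 and Nr1h2.

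Among the transporters, Abca1 was barely expressed in BMDM and reached a moderate level in BSM. Its FPKM was 0.246, 0.190 and 0.335 in BMDM replicates 1 to 3 and 3.21, 4.98 and 5.84 in BSM replicates 1 to 3. The lowest BSM library was thus above every BMDM library, and the ratio of the means, 4.68 ± 1.34 in BSM against 0.257 ± 0.0729 in BMDM (SD, n = 3), was 18.2. The log2 fold change was 2.15 (SE 0.29, adjusted p = 0.00064), a scale on which the added 1 shrinks the difference of a gene this low. Without BSM replicate 1 the log2 fold change was 2.35 (adjusted p = 0.00016). Among all genes of a library, Abca1 ranked between 10133 and 11046 in BMDM and between 1862 and 2890 in BSM. The gene spans chr4:53043659-53172767 in the mm9 positions of the files.

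Abcg1, the partner of Abca1 in cholesterol export, gave no difference between the cell types that exceeded the replicate spread. Its FPKM was 4.56, 8.81 and 4.48 in BMDM and 11.9, 3.44 and 2.70 in BSM. BSM replicate 1 was the highest of the 6 libraries while the other BSM libraries were the lowest, so the groups overlapped. The log2 fold change was -0.17 (95% interval -1.31 to 0.98, adjusted p = 0.79), and without BSM replicate 1 it was -0.72 (interval -1.46 to 0.02, adjusted p = 0.080). The part of RNA quality in the Abcg1 value of that library was not tested.

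The balance of the transporters within a library was taken as log2((Abca1 + 1)/(Abcg1 + 1)), which depends on no scaling apart from the added 1. It was -2.16, -3.04 and -2.04 in BMDM and -1.61, 0.43 and 0.89 in BSM. Abcg1 was therefore above Abca1 in all BMDM libraries and in BSM replicate 1, whereas Abca1 was above Abcg1 in BSM replicates 2 and 3. The means differed by 2.32 without overlap, at an exact permutation p of 0.10, the smallest that 3 against 3 libraries can give (0.13 after adjustment over the 4 ratios tested).

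Abca9, a transporter of the A subfamily whose substrate is not well defined, was the most abundant member in both cell types. Its FPKM was 27.0, 27.3 and 26.9 in BMDM and 80.8, 108 and 110 in BSM. The BMDM libraries differed by less than 1 FPKM unit, every BSM library was higher, and the ratio of means was 3.68. The log2 fold change was 1.83 (SE 0.22, adjusted p = 0.00039), and without BSM replicate 1 it was 1.97. In BSM Abca9 was among the most abundant of all genes, at ranks 104, 68 and 58, against 636, 729 and 703 in BMDM. It held between 70.1% and 77.9% of the FPKM summed over the 10 members in BSM and between 39.0% and 40.5% in BMDM.

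Abca9 lies at chr11:109962063-110029510 in a row of related genes, and its neighbours did not share its pattern. Abca6, the next gene in the files' positions, had 2.76, 3.55 and 2.36 FPKM in BMDM and 0.00805, 0.0362 and 0.0684 in BSM, and was lower in BSM (log2 fold change -1.90, SE 0.29, adjusted p = 0.0012). Abca5, beyond it, was at 8.81 FPKM in BSM replicate 1 but at most 0.126 in the other 5 libraries. Abca8a and Abca8b, on the other side, stayed at or under 0.155 and 0.407 FPKM. The high level along this stretch therefore belonged to Abca9 in all 6 libraries, and Abca5 is another transcript for which BSM replicate 1 stood apart. Abca5 and the Abca8 genes were looked at as neighbours after the values were seen.

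**Figure D2:**
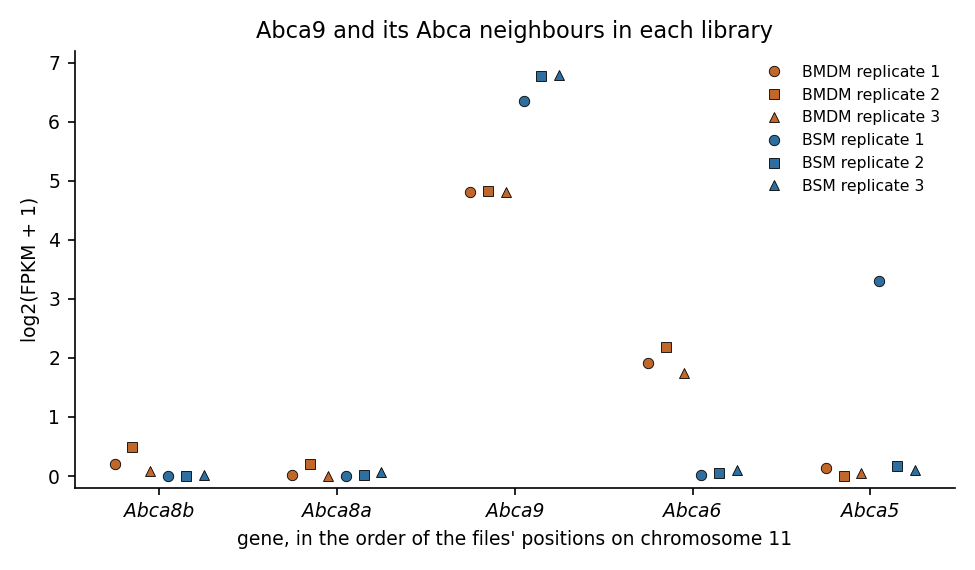
Level of Abca9 and 4 neighbouring Abca genes in each library as log2(FPKM + 1), in the order of their positions. Abca9 is high in all 6 libraries and highest in BSM, Abca6 is above 2 FPKM only in BMDM, and Abca5 is raised in BSM replicate 1 alone.

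Soat1, the acyltransferase that esterifies cholesterol for storage, went the other way from Abca1. Its FPKM was 15.8, 14.6 and 14.7 in BMDM and 5.41, 2.80 and 2.40 in BSM. BMDM libraries varied little, with a SD of 0.705 around 15.0, and every BSM library was lower, the highest being BSM replicate 1. The ratio of means was 4.25 in favour of BMDM and the log2 fold change was -1.88 (SE 0.29, adjusted p = 0.0013). Without BSM replicate 1 the log2 fold change was -2.16 (adjusted p = 0.00014). Soat1 lies at chr1:158358239-158404459. It kept its lower level under upper quartile scaling and quantile normalization, whereas with every library set to an equal sum of FPKM the log2 fold change was -0.75 (adjusted p = 0.10).

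Among the secreted proteins, Apoe was of similar level in both cell types. Its FPKM was 2.43, 5.48 and 4.63 in BMDM and 5.10, 5.35 and 4.42 in BSM. Only BMDM replicate 1 was below the rest, and the groups overlapped. The log2 fold change was 0.25 (95% interval -0.43 to 0.92, adjusted p = 0.49), which leaves room for a change of close to 1 log2 unit in favour of BSM. By rank within a library, Apoe stood between 3518 and 4944 in BMDM and between 2039 and 2439 in BSM, nearer to the top in every BSM library. At a near equal FPKM, 5.48 in BMDM replicate 2 and 5.35 in BSM replicate 2, it ranked 3518 and 2104. Nr1h2, not called either, ranked 4291 at 3.69 FPKM in BMDM replicate 3 and 2701 at 3.93 in BSM replicate 3. The ranks thus hold the shift of all genes and are no separate sign of a higher Apoe. Relative to the other genes it was called higher in BSM, with a log2 fold change of 0.96 under upper quartile scaling (adjusted p = 0.022), 1.01 under quantile normalization (0.014) and 1.34 with every library set to an equal sum (0.0063). The gene spans chr7:20281622-20284401.

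Lpl, the lipase that releases fatty acids from lipoprotein triglyceride, was lower in BSM. Its FPKM was 3.58, 1.61 and 4.61 in BMDM and 0.674, 0.787 and 1.03 in BSM. The groups did not overlap, but BMDM replicate 2 lay close to the BSM range. The ratio of means was 3.94 in favour of BMDM, and the log2 fold change was -1.16 (SE 0.34, adjusted p = 0.022). The call was lost without BMDM replicate 1 (adjusted p = 0.068), without BMDM replicate 3 (0.091), without BSM replicate 2 (0.056) and in the libraries from female mice (0.081). Under the 3 other scalings the log2 fold change was between -0.66 and -0.33, none of them called, so that relative to the other genes a lower level of Lpl in BSM was not shown. BMDM replicate 2 also held the most granulocyte transcripts, with a summed FPKM of 329 over 8 markers against 46.1 and 83.4 in the other BMDM libraries, and the most erythroid transcripts (38.8 against 6.81 and 6.92). The part of those cells in its low Lpl level was not tested. As that library had the lowest Lpl in BMDM, leaving it out could only widen the difference (log2 fold change -1.48, adjusted p = 0.0063).

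Within a library, the log2 ratio of Apoe to Lpl was -0.42, 1.31 and 0.00 in BMDM and 1.86, 1.83 and 1.42 in BSM, and that of Lrp1 to Lpl was 1.12, 1.43 and 0.47 in BMDM and 2.26, 2.90 and 2.43 in BSM. Both ratios were higher in each BSM library than in any BMDM library, by 1.40 and 1.52 on average, each at the exact p of 0.10 that is the smallest possible (adjusted 0.13).

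Pltp, which transfers phospholipid between lipoproteins, was low throughout. It gave 2.98, 1.18 and 0.301 FPKM in BMDM and 0.439, 1.43 and 0.90 in BSM, with overlap. In a fit with an FPKM minimum of 1, its log2 fold change was -0.26 (95% interval -1.22 to 0.71, adjusted p = 0.64). Its values are uncertain, because 1515 bases of its span (chr2:164665018-164683211) overlap the lysosomal gene Ctsa, at between 9.32 and 23.5 FPKM. Of the Pltp transcript, 14.2% is also found in Ctsa transcripts. The ALEXA-Seq values ordered the BMDM libraries differently, at 3.57, 0.744 and 3.45.

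Lrp1, the large endocytic receptor for Apoe-bearing particles, was the second member by mean level in BSM. Its FPKM was 8.93, 6.03 and 6.76 in BMDM and 7.0, 12.3 and 9.96 in BSM. BSM replicates 2 and 3 were above all BMDM libraries and BSM replicate 1 fell among them. The log2 fold change was 0.37 (95% interval -0.27 to 1.01, adjusted p = 0.29). Without BSM replicate 1 it was 0.57 (adjusted p = 0.058), in the libraries from female mice alone it was 0.71 (adjusted p = 0.025), and under the other scalings it was 1.13, 1.13 and 1.55, each called higher in BSM. Lrp1, at chr10:126975217-127058204, ranked between 891 and 1572 in BSM and between 1988 and 3245 in BMDM. As for Apoe, these ranks also hold the shift of all genes.

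**Figure D3:**
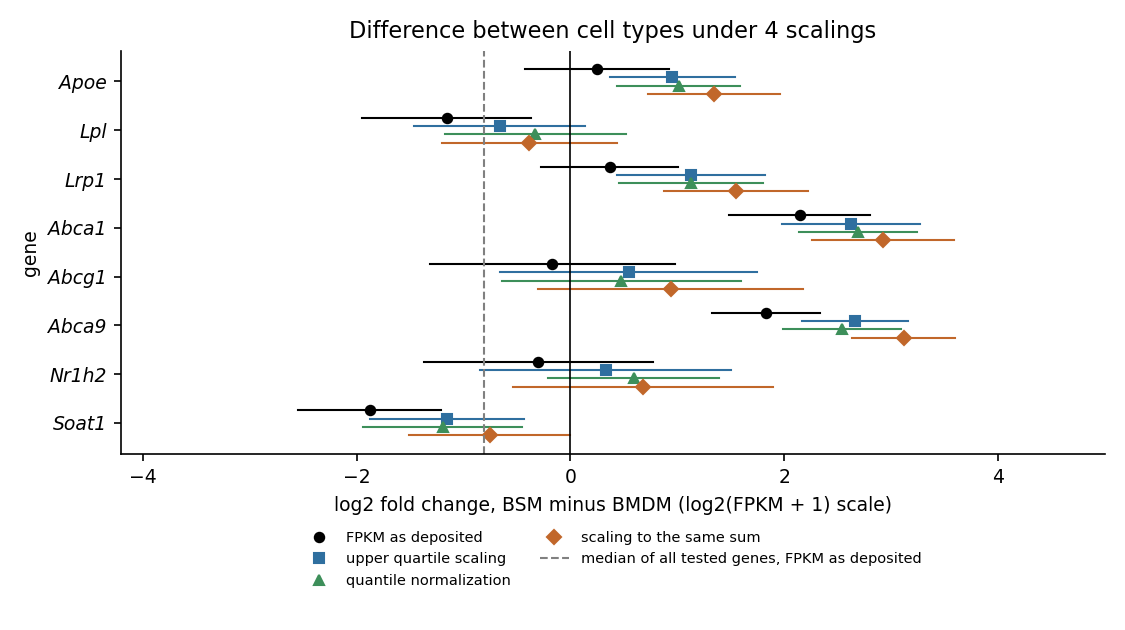
Log2 fold change (BSM minus BMDM) with its 95% interval for the 8 members tested, from FPKM as deposited and under 3 scalings, with the median of all tested genes dashed at -0.81. Abca1 and Abca9 lie to the right of 0 under all 4, Apoe and Lrp1 are clear of 0 only after scaling, and Lpl is clear of 0 only without it.

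Of the receptors that govern this pathway, Nr1h3 was barely detected in either cell type. It was listed at 0.006, 0 and 0 FPKM in BMDM and at 0, 0.052 and 0.021 in BSM, and with ALEXA-Seq at most 0.559 in any library. Nr1h2 had 2.62, 4.81 and 3.69 FPKM in BMDM and 0.793, 4.97 and 3.93 in BSM. Apart from BSM replicate 1, which was the lowest, the libraries of both cell types spanned the same range. The log2 fold change of Nr1h2 was -0.30 (95% interval -1.37 to 0.77, adjusted p = 0.60), and without BSM replicate 1 it was 0.23 (interval -0.38 to 0.85). In every library the LXR transcript measured was thus almost entirely that of Nr1h2. With Nr1h3 this close to 0, the log2 ratio of Nr1h3 to Nr1h2 repeats the level of Nr1h2 and is not read as a comparison of the receptors.

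Ordered by mean FPKM, BMDM had Abca9 (27.1) and Soat1 (15.0) at the top, each clear of the next gene in all 3 libraries. Lrp1, Abcg1, Apoe, Nr1h2 and Lpl followed between 7.24 and 3.27, and no neighbours in that stretch were apart in their ranges. Pltp, Abca1 and Nr1h3 came last. In BSM the order was Abca9 (99.5), then Lrp1, Abcg1, Apoe, Abca1, Soat1 and Nr1h2 between 9.75 and 3.23 with overlapping ranges from each gene to the next, followed by Pltp, Lpl and Nr1h3.

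The ALEXA-Seq values, a second quantification of the same libraries on a linear scale of unstated unit, called the same 4 members in the same directions. There, 7 members were among the 6364 genes with the highest values, and 10.9% of those genes were called higher in BSM and 37.1% lower. Abca1 had 3.81, 2.97 and 4.32 units in BMDM and 56.8, 87.1 and 101 in BSM, with a log2 fold change of 4.11 (SE 0.40, adjusted p = 0.00032), larger than in FPKM, where the added 1 weighs more. Abca9 changed by 1.97, Soat1 by -1.86 and Lpl by -1.64, with adjusted p of 0.00040, 0.013 and 0.016. The call of Lpl was lost without BMDM replicate 1 (0.069) or BMDM replicate 3 (0.087), and that of Soat1 without BMDM replicate 2 (0.053). Quantile normalization of these values ended both lower calls, with Lpl at -0.80 (adjusted p = 0.24) and Soat1 at -1.19 (0.054), and called Apoe (0.97, adjusted p = 0.025) and Lrp1 (1.19, 0.011) higher in BSM. Apoe, Lrp1 and Abcg1 had adjusted p of 0.53, 0.16 and 0.96. BSM replicate 1 was again the highest library for Abcg1, at 173 units against 36.0 to 110 in the others. As both tables come from the same reads, this is no independent replicate.

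**Figure D4:**
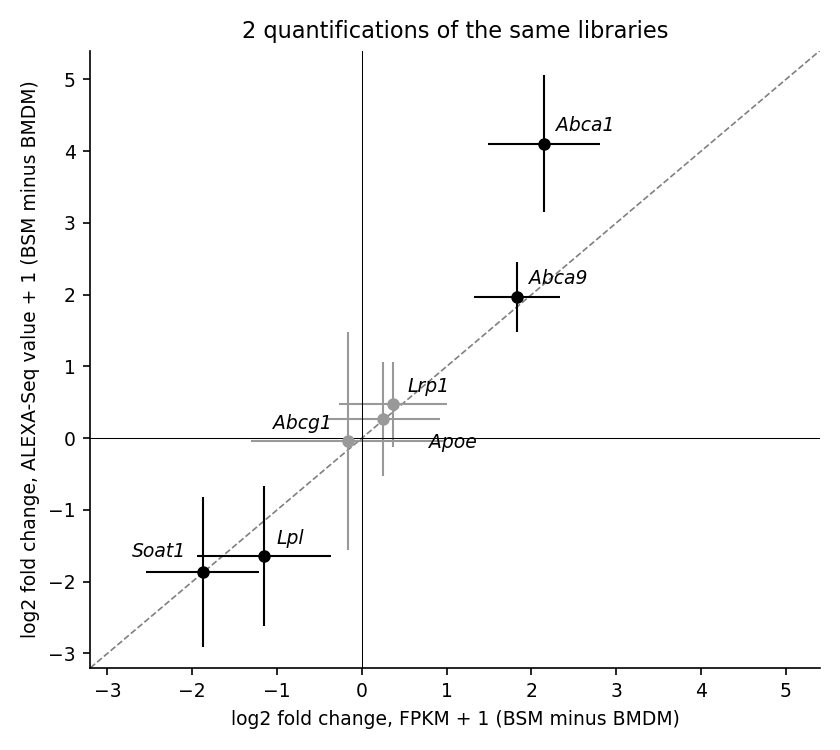
Log2 fold change (BSM minus BMDM) from FPKM on the horizontal axis and from ALEXA-Seq values on the vertical axis for the 7 members tested in both, with 95% intervals, black where both tests passed and grey where neither did. The points follow the dashed line of equality except Abca1, at 2.15 against 4.11.

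The pathway around the members was described with 7 lists holding 115 genes, of which 112 were in the table and 41 were tested. Of these, 5 were higher in BSM and 19 lower, with a median log2 fold change of -0.84 against -0.81 over all genes. Over all tested genes, 9.22% were called higher in BSM and 45.3% lower, and the counts of each list below stand beside these shares. The lists therefore sat close to all genes as a whole, and the genes named next are those called.

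The other apolipoproteins and plasma carriers were all under the minimum, 13 of 13 measured, and 4 of them (Apoa1, Apoc3, Apoc4 and Apoh) were listed at 0 in every library, which left Apoe as the only apolipoprotein of those measured that passed 3 FPKM. Of the lipases and their partners, 3 of 12 measured were tested and 0 called. This list held Lipa, the lysosomal lipase that frees cholesterol from its esters, at 16.7 ± 1.27 FPKM in BMDM and 9.59 ± 5.03 in BSM (SD, n = 3, adjusted p = 0.066). Lipa had 15.3 FPKM in BSM replicate 1 and 7.58 and 5.87 in BSM replicates 2 and 3. Daglb, a diacylglycerol lipase, had 2.27 ± 0.962 FPKM in BMDM and 4.65 ± 1.19 in BSM (log2 fold change 0.81, adjusted p = 0.052). Under the 3 scalings Daglb was called higher in BSM, with adjusted p between 0.0020 and 0.0055. Lipa and Daglb were singled out after their values were seen.

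Of the lipoprotein receptors and their regulators, 9 were tested, with 1 higher and 4 lower in BSM. The one higher was Mylip, a ubiquitin ligase induced by LXR, at 0.625 ± 0.0174 FPKM in BMDM and 7.46 ± 1.55 in BSM (log2 fold change 2.36, SE 0.25, adjusted p = 0.00020). Among those lower were the scavenger receptors Msr1 (18.9 to 0.144 FPKM by means) and Scarb1 (5.71 to 1.43), and the sorting receptor Sorl1 (20.0 to 2.38). These 3 were also called lower under quantile normalization, while Scarb1 was not with every library set to an equal sum (adjusted p = 0.13).

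Among the ABC lipid transporters, 7 were tested. Abcg2, an exporter of many compounds, was higher in BSM (0.962 to 5.14 FPKM, log2 fold change 1.66, SE 0.27, adjusted p = 0.0018). Of the 4 lower, Abca3, Abca6 and Abca13 had log2 fold changes of -1.10, -1.90 and -1.85. Under quantile normalization Abca6 and Abca13 kept their calls and Abca3 did not, and Abca3 also lost its call without BMDM replicate 3 (adjusted p = 0.058). Abca9, Abca1 and Abcg2 were thus the ABC genes called higher in BSM among the tested genes of this list and the members. Of the 19 genes listed, 12 were under the FPKM minimum, and their differences were not tested.

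Other genes known as LXR targets numbered 16, of which 5 were tested, with a median log2 fold change of 1.36. Of these 5, 3 were higher and 1 lower in BSM, beside 9.22% and 45.3% of all tested genes. Mertk, a receptor for the uptake of apoptotic cells, rose from 0.154 ± 0.115 to 64.3 ± 11.5 FPKM (log2 fold change 5.81, SE 0.24, adjusted p = 3e-06), and Lpcat3, which remodels membrane phospholipids, from 5.68 ± 0.693 to 16.6 ± 5.01 (log2 fold change 1.36, SE 0.27, adjusted p = 0.0042). Mylip, on this list too, was the third. Smpdl3a, a phosphodiesterase, was lower, from 28.4 to 0.570 FPKM (log2 fold change -4.24). All 4 kept these calls under every scaling and with each library left out. The other 11 were under the minimum, among them the lipogenic regulator Srebf1 (0.673 and 0.163 FPKM by means) and Fasn (0.279 and 0.0365), and Scd2, a desaturase, did not pass the test (adjusted p = 0.16). As only 5 of 16 targets could be tested, the list does not describe LXR activity.

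Partners of LXR were lower where they were called, 6 of 10 tested with 0 higher, beside 45.3% of all tested genes lower and 9.22% higher. The corepressor Ncor1 had 107 ± 15.4 FPKM in BMDM and 43.5 ± 4.71 in BSM, Ncoa1 had 4.38 ± 0.151 and 1.02 ± 0.342, Ncoa2 had 54.3 ± 14.5 and 25.9 ± 6.36, and Gps2, a subunit of the corepressor complex, had 6.04 ± 3.13 and 1.48 ± 1.03. The median log2 fold change of this list, -0.97, lay close to that of all genes, and these 4 were not called under quantile normalization or with equal sums. Under upper quartile scaling Ncoa1 was still called lower (log2 fold change -0.87, adjusted p = 0.027), and Ncor1, Ncoa2 and Gps2 were not. Without BMDM replicate 2, Gps2 (adjusted p = 0.081) and Ncoa2 (0.055) were not called either, and Ncoa2 was also lost without BMDM replicate 3 (0.056).

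Of the genes of intracellular cholesterol traffic and storage, 9 were tested, with 1 higher and 4 lower. Npc1, which exports cholesterol from lysosomes, was higher in BSM (13.6 ± 3.20 to 26.4 ± 4.38 FPKM, log2 fold change 0.92, SE 0.26, adjusted p = 0.018), while its luminal partner Npc2 was lower (31.4 ± 6.38 to 11.1 ± 6.07, log2 fold change -1.51, SE 0.36, adjusted p = 0.0097). Npc2 had 18.1 FPKM in BSM replicate 1 and 7.89 and 7.35 in BSM replicates 2 and 3. Plin2, the coat protein of lipid droplets, fell from 34.3 ± 1.66 to 2.59 ± 1.16 FPKM (log2 fold change -3.34, SE 0.28, adjusted p = 6e-05). Nceh1, a cholesteryl ester hydrolase, and Gramd1b, a sterol carrier of the plasma membrane contact sites, were lower by log2 fold changes of -1.23 and -2.23. Under quantile normalization Npc1 and Plin2 kept their calls and Npc2, Nceh1 and Gramd1b did not. Leaving out a library ended the call of Npc1 without BMDM replicate 1 (adjusted p = 0.060), BMDM replicate 3 (0.067) or BSM replicate 2 (0.056), that of Nceh1 without BMDM replicate 2 (0.061), BMDM replicate 3 (0.063) or BSM replicate 2 (0.052), and that of Gramd1b without BMDM replicate 2 (0.051) or BSM replicate 1 (0.052).

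**Figure D5:**
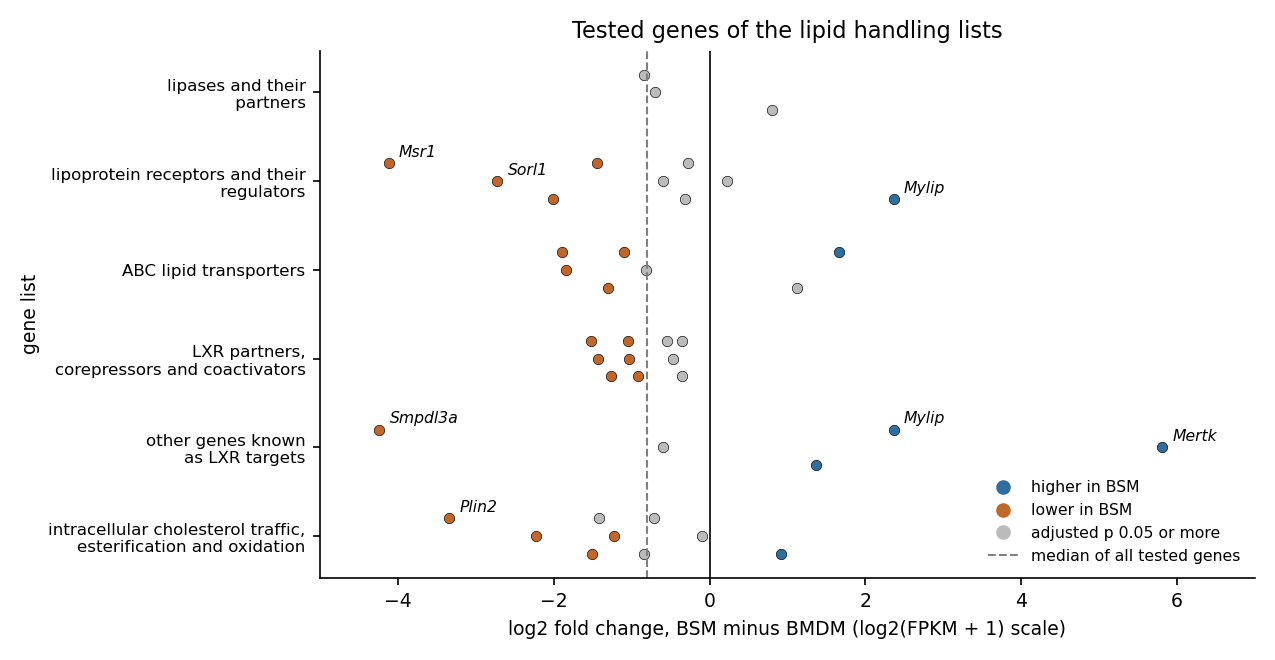
Log2 fold change (BSM minus BMDM) of each tested gene in 6 lists of lipid handling genes, blue where called higher in BSM, orange where called lower and grey where the adjusted p was 0.05 or more. Most points lie around the dashed median of all tested genes at -0.81, with Mertk and Mylip far to the right and Smpdl3a, Msr1, Plin2 and Sorl1 far to the left.

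By their microglial and monocyte markers, the sorted cells matched their labels. The summed FPKM of 6 microglial markers was between 721 and 810 in BSM and between 17.4 and 19.3 in BMDM, and that of 6 monocyte markers, led by Lyz2, between 1475 and 2935 in BMDM and between 4.72 and 6.51 in BSM. Markers of other cell types were summed in the same way. For scale, Apoe had between 4.42 and 5.35 FPKM in BSM and Lpl between 1.61 and 4.61 in BMDM. In BSM the 8 astrocyte markers summed to between 5.34 and 9.54 FPKM, almost all from Slc1a3, with the other 7 under 1 FPKM, and in BMDM the 8 markers of marrow stroma and adipocytes, led by Fabp4, to at most 1.44. Perivascular macrophage markers reached at most 4.77 in BSM and between 113 and 159 in BMDM, where F13a1 made up most. Oligodendrocyte markers, led by Mbp, summed to between 5.58 and 8.62 in BMDM and at most 1.21 in BSM, and neuronal markers, led by Snap25, to at most 0.249 in any library. Endothelial markers, led by Pecam1, reached 3.84 and lymphocyte markers, led by Nkg7, 8.86, the latter in BMDM replicate 2. Granulocyte markers, led by Mpo, and erythroid markers, led by Hba-a1, reached at most 0.171 in BSM. In BMDM the granulocyte markers summed to between 46.1 and 329 and the erythroid markers to between 6.81 and 38.8, so transcripts of other marrow cells were present there. The part of these cells in the members' values was not tested.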

How the data were processed

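RNA-Seq libraries from 3 BMDM and 3 BSM samples were analysed, grouped by their labels. The authors aligned 100 basepair reads to mm9 with TopHat 1.3.1 and Bowtie 0.12.7, after CASAVA 1.7.0, and deposited one FPKM per gene from Cufflinks 1.0.3, scaled by transcript length and mapped reads (versions per the submitters' processing notes). They also deposited a linear expression signal per gene from ALEXA-Seq, whose unit is not given in the sources used here. Neither table holds reads, so the depth behind a value is unknown.

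FPKM were compared with limma 3.58.1 in R 4.3.3 (mean-variance trend, Benjamini-Hochberg) on log2(FPKM + 1), for the 6364 genes with at least 3 FPKM in at least 1 library. The 6364 highest ALEXA-Seq entries were tested likewise on log2(value + 1). Folds are ratios of means, and differences are BSM minus BMDM. Ratios of members within a library were compared with two-sided exact permutation tests. Simulated data for this comparison were used to test the limma step, with 200 of 6364 genes changed. It called 0 at a log2 fold change of 1, 138 at 2 and 195 at 4. Small differences can thus be missed where few genes change. In the data 3470 genes were called, which makes the adjusted threshold less strict. The simulated numbers therefore do not give the share of differences missed here. Same-numbered libraries did not deviate together (r = -0.0195, -0.0084 and 0.134), so the numbers were not taken as pairs.

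Starts were counted from 0 in the files, since 7542 of 17788 genes then matched their GENCODE M21 span against 266 otherwise, and are printed counted from 1. Shared sequence was searched with blastn 2.17.0 (95% identity, 100 bases). Promoters came from RefSeq. Scripts ran in Python 3.11.15 with pandas 2.3.3, numpy 2.4.6, scipy 1.17.1 and matplotlib 3.10.9.

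The members and lists were chosen with earlier results of these data known. Named are all 10 members, the called genes of each list (at most 4 in each direction by size of change) and the highest gene of each marker list, beside genes said to be chosen after their values were seen. Some genes that this rule names are not reported here. Alternatives were 0.1 as the pseudocount, a minimum of 1 FPKM or no minimum, 3 scalings, no trend, the replicate number as a block, and leaving out each library or both of replicate 1.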

Additional observations from a re-analysis of the deposited data

How the results depend on the processing

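With only 3 libraries in each group, leaving out a library decided several calls. The members called higher in BSM numbered 2, and 4 under upper quartile scaling, quantile normalization or scaling to the same sum. Those called lower numbered 2, but 1 with no minimum, under upper quartile scaling, under quantile normalization or in female libraries only, 0 after scaling to the same sum, and between 1 and 2 when each library was left out in turn, at 1 without BMDM replicate 1, BMDM replicate 3 or BSM replicate 2. With ALEXA-Seq values under quantile normalization, 4 members were called higher and 0 lower, and the lower count was between 1 and 2 with each library left out, at 1 without each of the BMDM libraries. Of the pathway list genes, 24 were called, and 15 under each of the 3 scalings. Those called higher went from 5 to 8 with an FPKM minimum of 1, with no minimum or after scaling to the same sum, and those called lower from 19 to 9 under upper quartile scaling, 8 under quantile normalization and 7 with equal sums. Over all genes, the median log2 fold change was -0.15, -0.02 and 0.23 under upper quartile scaling, quantile normalization and equal sums, where 1051, 1227 and 1585 genes were called higher and 1379, 1378 and 968 lower, against 587 and 2883 in the unscaled data. The cause of the shift was not tested.

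Directions turned only for members that were not called. With each library left out, the log2 fold change of Apoe was between -0.023 (without BMDM replicate 1) and 0.436, that of Abcg1 between -0.724 and 0.177 and that of Nr1h2 between -0.635 and 0.232, and in ALEXA-Seq values that of Apoe between -0.052 (without BMDM replicate 1) and 0.481 and that of Abcg1 between -0.738 and 0.378. Apoe was at -0.042 in female libraries only. Abcg1 was at 0.55, 0.48 and 0.94 under the 3 scalings in the same order, and turned without BMDM replicate 2, BSM replicate 2 or BSM replicate 3. In ALEXA-Seq values it was at 0.57 under quantile normalization and turned without the same libraries. Nr1h2 was at 0.33, 0.59 and 0.68 under the 3 scalings, turned without BSM replicate 1, and was at 0.056 in female libraries only. Abca1 and Abca9 kept their calls in all 15 alternatives for FPKM and all 8 for ALEXA-Seq values. Soat1 kept its call in 14 of 15 for FPKM and 6 of 8 for ALEXA-Seq values, where its adjusted p was 0.054 under quantile normalization and 0.053 without BMDM replicate 2. With the replicate block, 4 members were again called for FPKM and 4 for ALEXA-Seq values. The 4 within-library ratios kept their sign but changed in size. From a pseudocount of 1 to one of 0.1 and to ALEXA-Seq values, the difference went from 2.32 to 3.95 and 4.15 for Abca1 to Abcg1, from 1.40 to 2.07 and 1.91 for Apoe to Lpl, from 1.52 to 2.16 and 2.12 for Lrp1 to Lpl, and from 0.33 to 0.75 and 0.89 for Nr1h3 to Nr1h2. The last overlapped between the groups for FPKM (exact permutation p = 0.80 and 0.40) and not for ALEXA-Seq values (0.10, the smallest possible). Allowing 3 mismatches in the DR4 search, chosen after the values were seen, raised the members with a match from 0 to 1.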
